A study of Mus musculus with 4 samples.

Results

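4 long noncoding RNAs (lncRNAs) that are known to stay in the nucleus, *Malat1*, *Neat1*, *Kcnq1ot1* and *Miat*, were followed in cultured female germline stem cells (FGSCs) with and without knockdown of *Nat10*. They were chosen by name for their location in the cell, and all 4 were found among the 53465 genes of the expression table. A mean of at least 0.1 FPKM (fragments per kilobase of exon, scaled for the depth of the library) over the libraries was required for testing, and 20116 genes passed, *Malat1*, *Neat1* and *Kcnq1ot1* among them. *Miat* did not pass.

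The Long RNA-seq compared mouse FGSCs of ovarian origin that carried a control shRNA (shNC) with FGSCs that carried an shRNA against *Nat10* (shNAT10), in 2 biological replicates each and 4 libraries in all. The shRNAs were delivered by lentivirus and infected cells were drug-selected, and cells of both groups had been cultured as the same line, whose labels give neither strain nor age. NAT10 writes N4-acetylcytidine (ac4C), an acetylated base of RNA, and the comparison asked how transcript levels differ when it is depleted. Acetylation of the RNAs was not measured in these libraries. The methods name rRNA depletion and the labels mRNA isolation, and what this means for the capture of RNAs without a poly(A) tail was not tested.

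*Malat1* is a very abundant RNA of nuclear speckles, the compartments that store splicing factors. *Neat1* is the scaffold on which paraspeckle proteins assemble, and *Kcnq1ot1* is transcribed from the paternal allele inside *Kcnq1*, in the antisense direction, and silences imprinted genes around it. *Miat* (also called Gomafu) forms spots of its own in the nucleus of neurons and binds splicing factors. *Malat1* and the long form of *Neat1* do not end in an ordinary poly(A) tail, because RNase P cuts their 3′ ends in front of a tRNA-like RNA and leaves a U-rich and A-rich triple helix that protects the end.

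The last 400 nt of the annotated *Malat1* and *Neat1* transcripts (GENCODE M21, GRCm38) were searched for the longest stretches that both share, since this end is what sets the pair apart from other lncRNAs. The 3 longest had 16, 13 and 11 nt, and the next had 9. On the lines that follow, which run 5′ to 3′ on the minus strand of chromosome 19 with T for U, capitals mark the shared stretches, of which the upper pairs are U-rich and the last pair is A-rich.

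Malat1, chr19:5796046-5796073: taaaggttTTTCTTTTCCTGAgaaaaca
Neat1, chr19:5824778-5824805: cgcaggtgTTTCTTTTCCTGAccgcggc
Malat1, chr19:5796014-5796041: tttgttttCTCAGGTTTTGCTTTTtggc
Neat1, chr19:5824747-5824774: tggccgcgCTCAGGTTTTGCTTTTcacc
Malat1, chr19:5795973-5796000: taaaaaaaAAAAAGCAAAAgacgctggt
Neat1, chr19:5824708-5824735: gaacgaacgtgagcaggAAAAAGCAAAA

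The stretches stood in the same order in both RNAs. Of 8331 lncRNA genes, 2 (0.0240%) held TTTCTTTTCCTGA in the last 400 nt, and 2 (0.0240%) held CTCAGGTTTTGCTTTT. The A-rich AAAAAGCAAAA was present in 16 (0.192%). The reverse complements were present in 0.0120%, 0% and 0.120%, in the same order. Only *Malat1* and *Neat1* held all 3 stretches, as their choice fixed, and *Kcnq1ot1* and *Miat* held none of them in that window. The A-rich stretch closes the annotated *Neat1*, whereas the annotated *Malat1* runs 292 nt further. The A-rich stretch of *Malat1* starts inside an encoded run of 12 A, which ends 298 nt before the annotated end of *Malat1*. The matches describe these letters and no more.

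All 4 genes are on minus strands. *Malat1* (chr19:5795690-5802672) has 1 merged exon of 6983 nt, and *Neat1* (chr19:5824708-5845478), with 1 merged exon of 20771 nt, lies 22.0 kb from it. *Kcnq1ot1* (chr7:143203458-143296549) is an unspliced RNA of 93092 nt inside *Kcnq1*, and *Miat* (chr5:112213228-112229395) has 6 merged exons of 9293 nt in all. Each was longer than at least 99.6% of 2845 lncRNAs that passed the filter, whose median transcript length was 1056 nt. The ac4C-associated pattern CNNCNNCN (N for any base) occurred 5.73 times per kb in *Malat1*, 13.7 in *Neat1*, 9.73 in *Kcnq1ot1* and 15.7 in *Miat*, against a median of 17.9 over those lncRNAs. On the reverse strand the densities were 25.9, 19.02, 10.5 and 33.3 per kb. *Malat1*, in which cytidine is 17.1% of the bases against a median of 24.2%, was thus among the lncRNAs poorest in the pattern, with only 5.13% of them below it.

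The libraries held 11057922 to 14902105 fragments on genes, recovered as whole numbers from the FPKM. Loci that collect rRNA reads took 46.6% and 35.7% of the shNC and 23.7% and 25.8% of the shNAT10 fragments, so this share moved with the groups. Among these loci *Gm42418* (log2 fold change -1.45), *Gm23935* (-0.69) and *Gm26917* (-0.32) were not called, and *CT010467.1* (-1.29), *Lars2* (-1.01) and *Gm15564* (-1.03) were called lower by the test below, whereas limma-voom gave all 6 tested loci an adjusted p under 0.05, each lower. *Nat10* had 7.79 and 5.42 FPKM under shNC but 2.95 and 3.04 FPKM under shNAT10. Of 8 germline stem cell markers, *Dazl*, *Pou5f1* and *Dppa3* were at 0 in all libraries and *Ddx4* reached at most 0.0529 FPKM, so these defining markers went against the labelled cell type. A value of 0 in these data need not mean that the RNA was absent, as the RNA exosome subunit gene *Exosc6* was also at 0 in all libraries. The whole germline list summed to 9.85 and 22.8 FPKM in shNC, lower than its 27.95 and 34.4 in shNAT10, so this sum moved with the groups. Nearly all of it was *Ifitm3* (log2 fold change 1.06, not called in limma, limma-voom adjusted p = 0.00364), and *Zbtb16* (0.47) and *Gfra1* (0.51) were not called. Of 6 granulosa cell markers, which summed to at most 0.496 FPKM, *Inha*, *Wt1* and *Amh* were tested and 0 called in limma, though limma-voom gave *Wt1* a log2 fold change of -2.67 (adjusted p = 0.0465). A list of 10 leukocyte and mast cell markers, *Ptprc*, *Cpa3*, *Cd53* and *Kit* among them, summed to 652 and 707 FPKM in shNC, against 607 and 617 in shNAT10, with *Fcer1a* at 0. By the test below, 1 of its 8 tested genes was called higher, *Ms4a2* (2.12), and 4 lower, *Laptm5* (-0.64), *Kit* (-0.60), *Cd53* (-0.58) and *Gata2* (-0.33), with *Cpa3*, *Coro1a* and *Ptprc* not called. Of 6 fibroblast markers, which summed to between 44.8 and 60.7 FPKM with *Lum* at 0, 5 were tested, and *Pdgfra* (0.83) and *Col3a1* (0.98) were called higher, with *Dcn*, *Col1a1* and *Col1a2* not called. The part of these shares and markers in the lncRNA levels was not tested.

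The levels of the 4 lncRNAs, compared per length, kept 1 order in every library, with *Malat1* far above *Neat1*, *Neat1* above *Kcnq1ot1*, and *Miat* not detected. *Malat1* exceeded *Neat1* by 117 to 178 times, and *Neat1* exceeded *Kcnq1ot1* by 12.8 to 26.4 times, so each step was much larger than the spread between replicates. The size of these folds depends on the length that FPKM divide by. Which of the 4 annotated *Neat1* transcripts were present was not resolved. The groups were compared with limma (trended variance, two-sided) on log2(FPKM + 0.1) for all 20116 genes. A gene was called where its fold change exceeded 1.2 with p at most 0.05 before adjustment. By this rule 1 of the 3 tested lncRNAs was called, *Malat1*, against 16.2% of all tested genes (8.41% higher and 7.83% lower) and 12.9% of the 2882 tested genes of lncRNA classes (6.52% higher and 6.42% lower). None of the 3 had an adjusted p under 0.05, which 0.437% of all genes had. The groups did not overlap for *Malat1* and *Kcnq1ot1*, as for 48% of all tested genes (23.9% with both shNAT10 values above and 24.1% with both below). Since FPKM are relative to the RNA of a whole culture, fewer cells of a type and less RNA per cell cannot be told apart. An exact permutation test over 2 against 2 libraries cannot give a two-sided p below 0.3333.

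**Figure D1:**
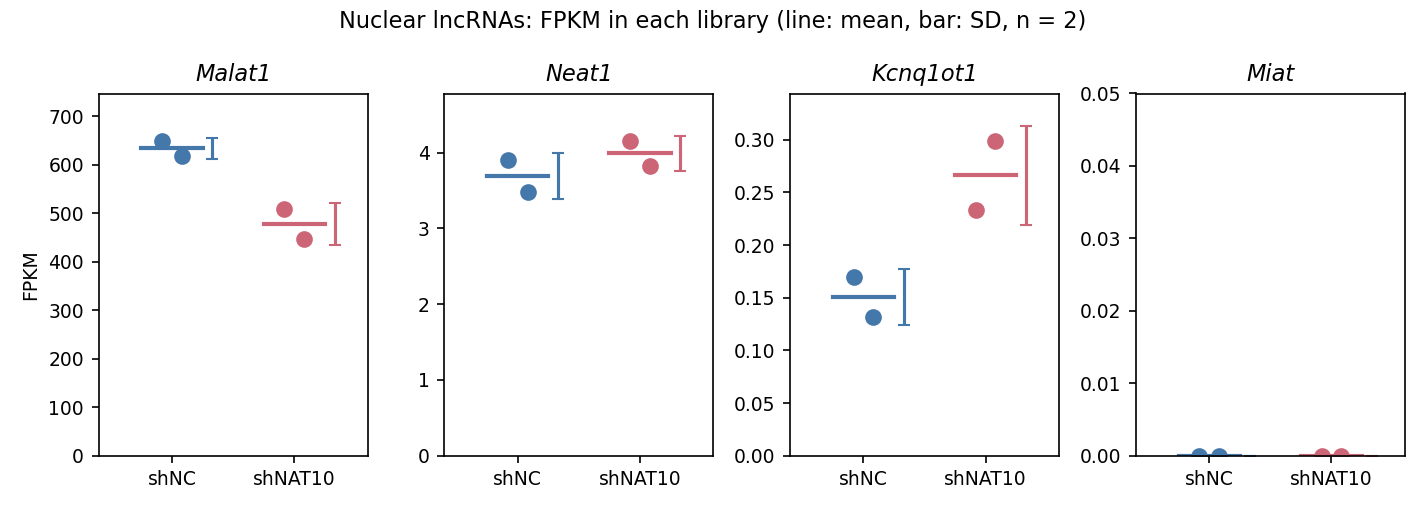
FPKM (linear axis from 0, a different range in each panel) of the 4 lncRNAs in each library of the shNC and shNAT10 groups, with points for libraries, a line for the group mean and a bar for the SD (n = 2). The *Malat1* points of shNAT10 lie below those of shNC, the *Kcnq1ot1* points lie above them, the *Neat1* points overlap and *Miat* is at 0.

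*Malat1* was at 650 and 619 FPKM in the shNC libraries and at 509 and 448 FPKM in the shNAT10 libraries. Both shNAT10 values were below both shNC values. The means were 634 ± 21.8 and 478 ± 43.0 FPKM (SD, n = 2), a ratio of 0.754, and the log2 fold change was -0.41 (SE 0.11). It had an unadjusted limma p of 0.0173, an adjusted p of 0.210 and an exact permutation p of 0.3333. This difference was larger than the log2 gaps within the groups, 0.07 in shNC and 0.18 in shNAT10. Among the 350 genes with a mean of at least 100 FPKM, where replicates lie close together, 36.6% were called, as 18.9% lower and 17.7% higher, so a call at the level of *Malat1* was more frequent than over all genes.

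The depth behind *Malat1* was large, with 53280 and 51289 fragments in shNC and 44570 and 47924 in shNAT10. As a share of all fragments on genes it was 0.358% (95% Wilson interval 0.355 to 0.361) and 0.394% (0.390 to 0.397) for shNC. For shNAT10 it was 0.403% (0.399 to 0.407) and 0.348% (0.345 to 0.351). On this scale, which includes the rRNA reads, the groups overlapped, and the log2 fold change was -0.00 when libraries were scaled to the same total of fragments. That scaling moved the median of all tested genes to 0.38, and relative to this median *Malat1* was at -0.38. With the rRNA-related loci left out of the total, the log2 fold change of *Malat1* was -0.36. *Malat1* ranked 49th and 64th among all genes by FPKM in the shNC libraries and 80th and 81st in the shNAT10 libraries, and 4th or 5th among the lncRNAs in each. The intervals cover counting error only and not the spread between libraries. Copies made by PCR, which are not told apart, would make them too narrow even for that.

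Other fits moved the p-value of *Malat1* more than its fold change. In limma-voom, which weighs genes by their fragments, its log2 fold change was -0.41 (SE 0.08, adjusted p = 0.000491). In that fit 7.88% of all genes passed an adjusted p of 0.05, 4.23% higher and 3.66% lower. Its limma-voom adjusted p was 0.481 without shNAT10-1 and 0.482 without shNAT10-2, with log2 fold changes of -0.50 and -0.32, and it remained under 0.05 without either shNC library. In the limma fit with trended variance, the call was lost with any single library left out, as the log2 fold change ranged from -0.50 to -0.32 and the lowest limma p was 0.0728. Without the mean-variance trend the call was lost as well. The plot of fold change by setting shows these fits side by side.

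*Gm37376*, an unconfirmed gene model of 453 nt, lies wholly inside *Malat1* on the opposite strand (chr19:5801941-5802393). Its FPKM, 958 and 891 with the control shRNA, was 713 and 634 after knockdown, a called log2 fold change of -0.46 (SE 0.12, limma adjusted p = 0.195). Both shNAT10 values were the lower, as for *Malat1*, and the ratio of *Gm37376* to *Malat1* was between 1.40 and 1.47 in the 4 libraries. Across the table, 14 unspliced genes of at least 200 nt lay on the opposite strand inside an exon of a host at 10 FPKM or more, and 0 of them were at 0, with a median of 1.11 times the level of the host. The 3 such genes on the same strand as the host were at 0. The strand setting of the counting is not given in the sources used here, so reads of *Malat1* and of *Gm37376* cannot be told apart in the 453 nt that they share. *Gm27694*, a misc_RNA of 86 nt inside *Malat1* on its own strand, was at 0.

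The paper reports lower *Malat1* by RT-qPCR in shNAT10 than in shNC FGSCs, and shows ac4C sequencing tracks of *Malat1* in FGSCs. The study's oligonucleotides for *Malat1* were placed on the transcripts to show which part of the RNA they read.

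RT-qPCR forward: ttttgagggctgactgccaa
RT-qPCR reverse: ggttgtgctggctctaccat
acRIP-qPCR forward: aggcaggcaaatctctgtga
acRIP-qPCR reverse: cttgtagcccctgctgtctt

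The RT-qPCR pair matched *Malat1* and no other gene among 141767 transcripts, at chr19:5800789-5800808 and chr19:5800711-5800730, with a product of 98 nt. The pair listed for acetylated RNA immunoprecipitation (acRIP-qPCR) under the name malat1 matched none of the 4 *Malat1* transcripts. Its reverse primer matched *Frmd8* alone (chr19:5849796-5849815), and its forward primer matched *Frmd8* (chr19:5849742-5849761) and 11 other genes, over the full length in each case. *Frmd8* lies on the far side of *Neat1*, 47.0 kb from *Malat1*. Its FPKM, 2.999 and 2.55 in shNC, overlapped the 2.98 and 3.44 in shNAT10 (log2 fold change 0.20, SE 0.17, limma adjusted p = 0.586). Genomic matches outside annotated transcripts were not searched.

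*Neat1* was at 3.91 and 3.48 FPKM in shNC and at 4.16 and 3.82 FPKM in shNAT10. The lower shNAT10 library lay between the shNC libraries, so the groups overlapped. The log2 fold change was 0.11 (SE 0.14, limma adjusted p = 0.727, exact permutation p = 0.667), which was less than the log2 gap of 0.17 between the shNC libraries. With 858 to 1218 fragments in each library, limma-voom gave the same fold change of 0.11 with an adjusted p of 0.670. When libraries were scaled to the same total of fragments it was called higher, at 0.51, where the median of all tested genes was 0.38. The 3 misc_RNA models inside *Neat1* and *Gm27702*, a model of 56 nt that starts where *Neat1* ends, were at 0.

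Because both genes are cut at the 3′ end by the same kind of enzyme and lie side by side, *Malat1* was also set against *Neat1* within each library, which removes the scaling between libraries. *Malat1* stood 166 and 178 times above *Neat1* in shNC and 122 and 117 times in shNAT10. The shNAT10 ratios were both the lower. The log2 ratio differed by -0.52 between the groups, against a pooled SD of 0.06, and the exact permutation p was 0.3333, the smallest possible. These ratios use the same FPKM as the comparisons above and are no independent evidence.

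*Kcnq1ot1* was at 0.169 and 0.132 FPKM in shNC and at 0.233 and 0.299 FPKM in shNAT10. Both shNAT10 values were above both shNC values, in the direction opposite to *Malat1*. The means were 0.151 ± 0.0267 and 0.266 ± 0.0466 FPKM (SD, n = 2), a ratio of 1.77, while the log2 fold change on the log2(FPKM + 0.1) scale, which understates changes at this level, was 0.55 (SE 0.47, limma adjusted p = 0.604, exact permutation p = 0.3333) and was not called. It held 185 and 146 fragments in the control libraries and 272 and 427 in the knockdown libraries.

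The length of *Kcnq1ot1* sets it apart from genes of like FPKM. Of the 2751 genes within 1.5-fold of its mean FPKM, 0 had more than its 1030 fragments, and their median was 15 fragments over a median length of 1402 nt. The trend fit judged it by the spread of genes at that FPKM, whose median SE was 0.64. Limma-voom, which uses the fragments, gave a log2 fold change of 0.83 (SE 0.18, adjusted p = 0.00313). In that fit 4.23% of all genes were higher with an adjusted p under 0.05. Among genes between 0.1 and 1 FPKM it was 1.32%, not a like share, since genes near the FPKM of *Kcnq1ot1* held far fewer fragments. The limma-voom adjusted p rose to 0.481 and 0.487 without the shNAT10-1 or the shNAT10-2 library, where the log2 fold change was 1.00 and 0.64, and it remained under 0.05 without either shNC library. The call therefore differed between the fits. With a library left out, the spread comes from the other group alone and the lone library is assumed to vary like it, so a lost call there does not show that the fold change rests on that library.

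Within libraries, *Malat1* exceeded *Kcnq1ot1* by 3833 and 4696 times in shNC and by 2181 and 1497 times in shNAT10. The groups did not overlap, which was fixed by the lower *Malat1* and higher *Kcnq1ot1* values of both shNAT10 libraries. The log2 ratio differed by -1.23 (pooled SD 0.31, exact permutation p = 0.3333, the smallest possible). *Neat1* exceeded *Kcnq1ot1* by 23.0 and 26.4 times in shNC and by 17.8 and 12.8 times in shNAT10, a log2 difference of -0.71 (pooled SD 0.26). Both ratios reuse the FPKM above and are no independent evidence. With a pseudocount of 1, large beside the level of *Kcnq1ot1*, these differences were -0.55 and -0.0481.

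The exons of *Kcnq1*, the potassium channel gene on the other strand, were at 0 in 3 libraries and at 0.0478 FPKM (3 fragments) in shNAT10-2. Fragments of *Kcnq1ot1* and of unspliced *Kcnq1* RNA cannot be told apart without strand, and the *Kcnq1* exons held next to none. The 4 misc_RNA models inside *Kcnq1ot1* gave values of at most 1.31 FPKM with overlapping groups, and 1 of them was at 0. Of 12 genes or models within 100 kb of *Kcnq1ot1*, 3 were tested, each a misc_RNA model inside it with at most 3 fragments in a library, and 0 were called, so the protein-coding surroundings could not be compared at this distance.

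*Miat* was at 0 in all 4 libraries. A floor of 3 fragments over its 9293 nt would be 0.0275 and 0.0272 FPKM for the shNC libraries. For the shNAT10 libraries it would be 0.0257 and 0.0211, and no fold change was computed. These floors hold only if reads of *Miat* were counted, which was not tested. *Exosc6*, an exosome subunit gene, was also at 0 in all 4 libraries. *Gm26953*, on the opposite strand, shares 2260 nt of exon with *Miat* and held 1 fragment, in shNAT10-1. The 4 misc_RNA models inside *Miat* were at 0 as well. Its neighbours within 100 kb were not all silent: *Tpst2*, a tyrosylprotein sulfotransferase gene, was at 10.3 to 12.1 FPKM in the 4 libraries (log2 fold change -0.01), and *Tfip11*, a splicing factor gene, differed by 0.07. *Cryba4*, a lens crystallin gene, was at 0.190 to 0.402 FPKM in the 4 libraries, and none of these 3 was called. Of 6 neuron markers, *Rbfox3* and *Snap25* were at 0 and *Syt1* reached at most 0.0102 FPKM, and 3 were tested. *Map2* was at 0.274 to 0.373 FPKM and not called. *Tubb3*, a neuronal tubulin gene, had 1.37 and 1.58 FPKM with the control shRNA, 2.47 and 2.58 with the *Nat10* shRNA, and was called higher (0.74), and *Celf3*, described further on as a partner of *Miat*, was called lower.

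**Figure D2:**
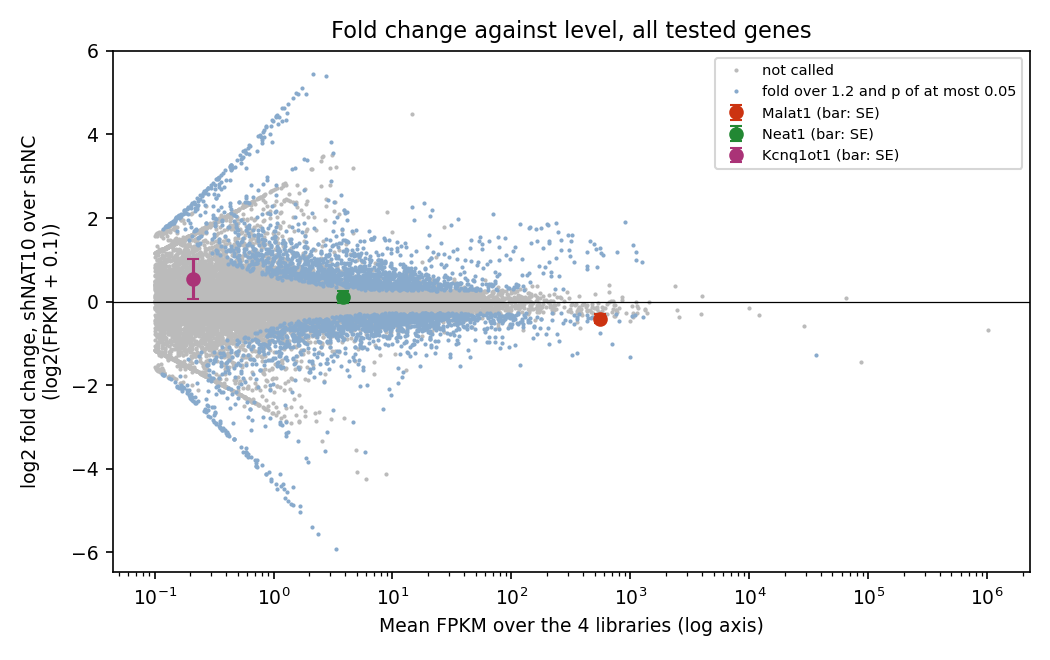
Log2 fold change of shNAT10 over shNC on the log2(FPKM + 0.1) scale against mean FPKM (log axis) for the 20116 tested genes, blue where called, with *Malat1*, *Neat1* and *Kcnq1ot1* as large points with SE bars. *Malat1* sits at the highly expressed end, where small folds are called, and *Kcnq1ot1* among genes of low FPKM, whose folds scatter widely.

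The surroundings of *Malat1* and *Neat1* did not move in 1 direction. Within 100 kb of either gene lay 22 other genes or gene models, of which 15 were tested, with 3 called higher and 2 lower, against 8.41% higher and 7.83% lower over all tested genes. Their median log2 fold change was 0.09, against 0.01 over all tested genes. *Frmd8os*, an antisense lncRNA that starts 0.144 kb from the 5′ end of *Neat1*, had 1.53 and 1.93 FPKM in shNC but 2.86 and 2.88 in shNAT10 and was called higher (0.71, SE 0.18, limma adjusted p = 0.190), and it overlaps *Frmd8* on the other strand. The other genes called higher, *Gm16538* (0.63) and *Sssca1* (0.61), overlap each other on opposite strands, so their reads may be shared. *Ehbp1l1*, whose product links endosomes to actin, was called lower (-0.36), as was *Gm37376* inside *Malat1*. Of these 5 called genes only *Gm37376* also passed in limma-voom, where the adjusted p of the rest was 0.0672 to 0.449.

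**Figure D3:**
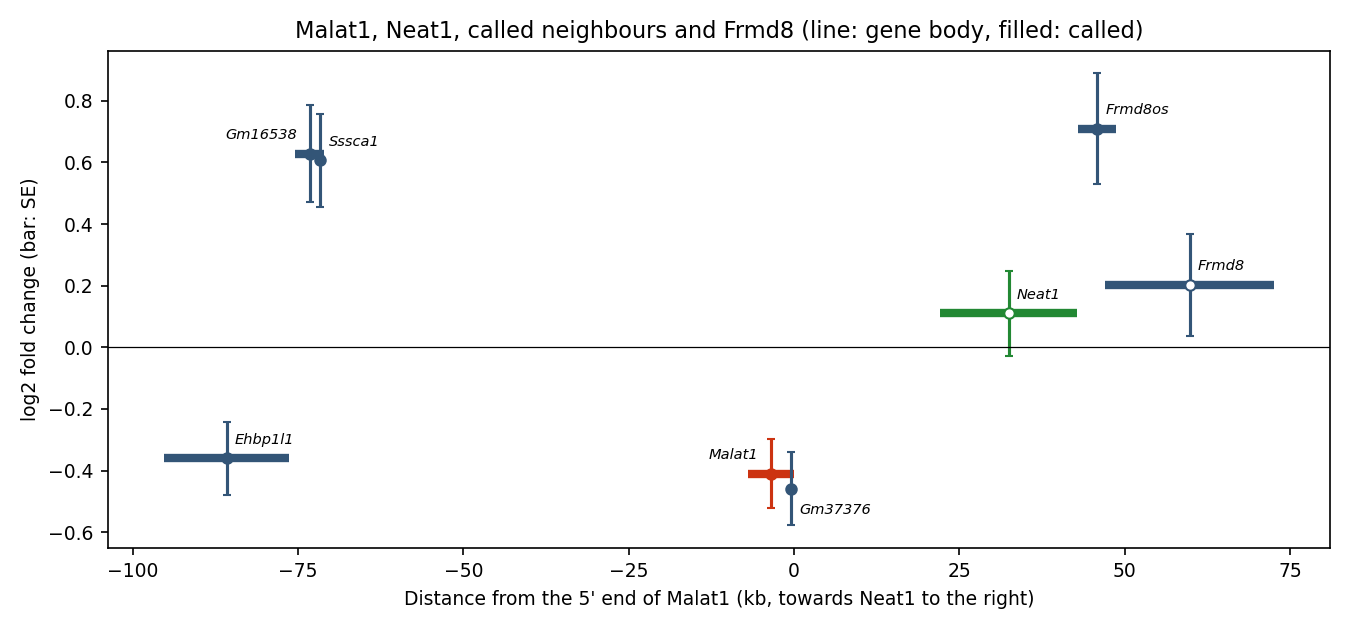
Log2 fold change (SE bars) of *Malat1*, *Neat1*, *Frmd8* and the 5 called genes within 100 kb of *Malat1* or *Neat1* against distance from the 5′ end of *Malat1* in kb, with thick lines for gene bodies and filled points for called genes. *Malat1* and *Gm37376* inside it lie below 0 together, whereas *Neat1* lies close to 0 and *Frmd8os* beside it at 0.71.

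Genes of the structures and enzymes that work with these RNAs were then described from lists, beside the 16.2% called and the median of 0.01 over all genes. Of 19 paraspeckle protein genes, 1 was called higher and 2 lower, with a median log2 fold change of -0.02 (-0.05 to 0.16 with a library left out, the highest without shNC-1). The calls were 2 higher and 1 lower without shNC-1, 1 and 3 without shNC-2, 0 and 2 without shNAT10-1, and 1 and 1 without shNAT10-2. *Hnrnpa1*, an RNA-binding splicing regulator, was called lower, with 116 and 124 FPKM in shNC against 78.5 and 80.1 in shNAT10 (-0.60, SE 0.08, limma adjusted p = 0.0818). *Taf15*, an RNA-binding protein of the FET family, was also lower (-0.49), and *Cpsf6*, a subunit of the cleavage factor that selects poly(A) sites, was higher (0.54). The most abundant uncalled genes were *Nono* (0.11), *Hnrnpm* (0.16) and *Hnrnpk* (-0.04). *Nono*, with *Sfpq* (0.16) and *Pspc1* (0.33), forms the core of paraspeckles, and none of these 3 was called.

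Of 20 nuclear speckle genes, 5 were called higher and 0 lower (25%, median 0.07). Without shNAT10-1 or shNAT10-2 the number called higher was 2, and with a library left out the median ranged from 0.00776, without shNC-2, to 0.148, without shNC-1. The genes called higher were *Srsf1*, *Srsf2*, *Srsf6*, *Srsf7* and *Rbm25*. Serine and arginine rich (SR) splicing factors bind exons, and of the 7 *Srsf* genes on the list *Srsf3* (0.08), *Srsf5* (0.07) and *Srsf11* (-0.10) were not called. *Srsf1*, at 58.5 and 58.1 FPKM in shNC, reached 75.9 and 76.9 in shNAT10 (log2 fold change 0.39, SE 0.08, limma adjusted p = 0.126), and *Srsf6* (0.43), *Srsf7* (0.41) and *Srsf2* (0.36) were likewise higher. The splicing regulator *Rbm25* was higher by 0.31. The most abundant uncalled genes were *Srsf3*, *Sf3b1* (-0.00), a subunit of the spliceosome, and *U2af2* (0.13), which binds the polypyrimidine tract. *Son* (-0.18) and *Srrm2* (-0.13), which encode the speckle core, were not called either.

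For the ends of *Malat1* and *Neat1*, 13 genes of RNase P, tRNA 3′ processing and triple-helix binding were tested, and 3 were called higher and 0 lower (median 0.08). Without shNAT10-1 or shNAT10-2, 0 were called, and without shNC-1, 1 was higher and 1 lower. *Rpp25*, an RNase P subunit, had 10.9 and 7.99 FPKM under the control shRNA and 15.4 and 16.7 FPKM under *Nat10* knockdown (log2 fold change 0.77, SE 0.18, limma adjusted p = 0.163). *Pop1*, another subunit, rose by 0.36, and *Trnt1*, which adds CCA to tRNAs and to the tRNA-like RNA of *Malat1*, by 0.34. The RNase P subunit genes *Rpp38* (-0.27), *Rpp14* (-0.04) and *Rpp30* (-0.03) were the most abundant uncalled ones. *Mettl16* (0.10), which binds the *Malat1* triple helix, was not called. Of 15 tested genes of the nuclear RNA exosome, which degrades RNAs retained in the nucleus, and its cofactors, *Exosc2* (0.42) and the helicase *Skiv2l2* (0.44) were called higher and 0 lower, with a median of 0.05, and 1 was called higher without shNAT10-1 or shNAT10-2, and 2 higher and 1 lower without shNC-1 or shNC-2. The most abundant uncalled genes were the nuclease *Exosc10* (-0.00), *Rbm7* (-0.16), of the targeting complex that recruits the exosome, and the subunit *Exosc3* (-0.01). *Exosc6* was at 0.

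Of 12 genes of the *Kcnq1* imprinted domain, 8 were tested and 1 was called, *Cd81*, a tetraspanin gene, at 45.7 and 44.5 FPKM in shNC and higher, at 55.3 and 54.1, in shNAT10 (0.28). Without shNC-2 or shNAT10-1, 0 of the 8 were called. *Cdkn1c*, the growth inhibitor that *Kcnq1ot1* is known to silence, and the trophoblast factor *Ascl2* were at 0, and *Phlda2* was above 0 in 1 library only. *Slc22a18* (-0.21), *Tssc4* (-0.06), *Tspan32* (-0.01), *Osbpl5* (-0.03), *Nap1l4* (0.13), *Tnfrsf23* (-0.17) and *Trpm5* (-0.31) were not called. The 8 chromatin partners of *Kcnq1ot1* were also not called (median 0.09), but without shNC-1, 1 was called higher and without shNC-2, 1 higher and 1 lower. They were the histone methyltransferases *Ehmt2* (0.14), *Ehmt1* (-0.51) and *Ezh2* (0.21), the Polycomb genes *Eed* (0.17), *Suz12* (0.15) and *Rnf2* (-0.03), the DNA methyltransferase *Dnmt1* (0.04) and *Hnrnpk* (-0.04).

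Splicing factors that bind *Miat* were expressed although *Miat* was not detected. *Celf3* had 11.7 and 10.1 FPKM with the control shRNA against 6.81 and 6.996 FPKM with the *Nat10* shRNA (log2 fold change -0.65, SE 0.12, limma adjusted p = 0.122). *Sf1*, the branch point binding protein, was lower by less (-0.38). Of the 3 genes on this short list 2 were found and tested, and both were called lower, against 7.83% of all tested genes. Not all of these calls were kept with a library left out, where the list median was -0.58 to -0.45.

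**Figure D4:**
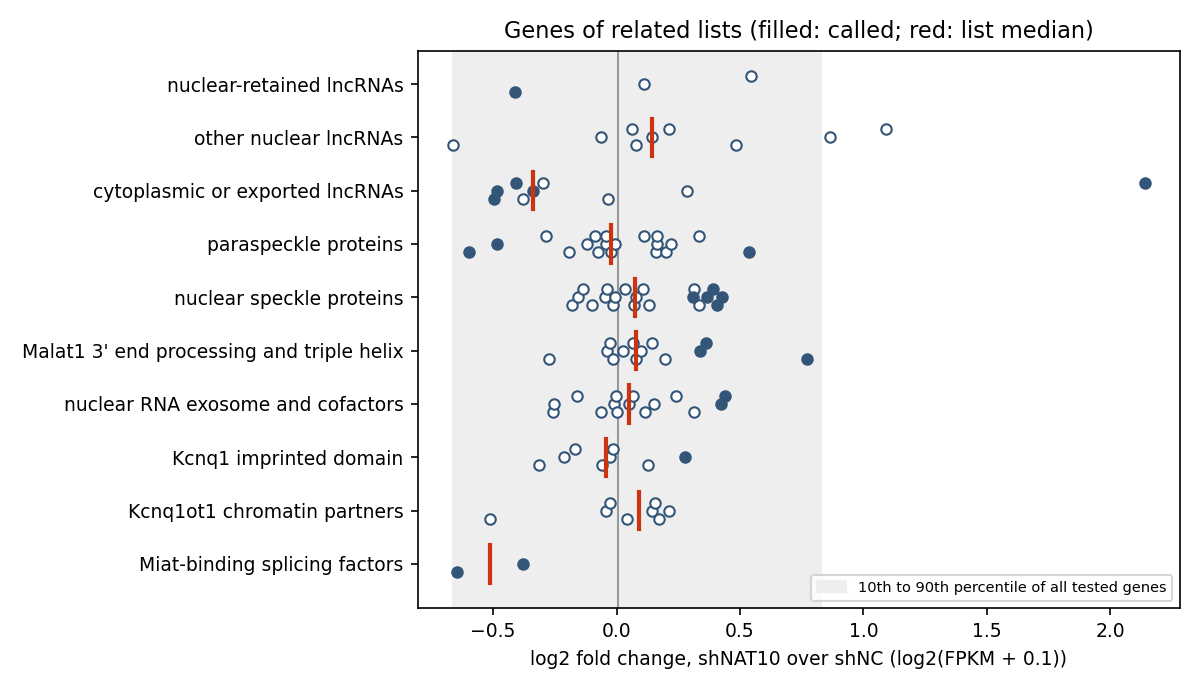
Log2 fold change on the log2(FPKM + 0.1) scale of the tested genes of each list, with filled points for called genes, red lines for list medians and a grey band for the 10th to 90th percentile of all tested genes. The list medians lie near 0 except those of the cytoplasmic or exported lncRNAs (-0.34) and of the 2 splicing factors that bind *Miat* (-0.51).

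Other lncRNAs were described for comparison. Of 15 other nuclear lncRNAs, 9 were tested and 0 were called, with a median log2 fold change of 0.14, though 1 was called higher without shNC-1 and 2 without shNC-2. They were *Firre* (0.06), *Tug1* (0.21), *1810026B05Rik* (-0.06), *Pvt1* (0.14), *Jpx* (0.08), *Ftx* (-0.66), *Lncpint* (1.09), *Peg13* (0.48) and *Nespas* (0.87), and limma-voom gave *Lncpint* an adjusted p of 0.0338. *Xist*, the RNA of the inactive X chromosome in female cells, held at most 3 fragments in a library (0.0143 FPKM). This was so although the cells are described as female, and the reason was not tested. *Meg3* was at 0, so *Miat* was not alone among nuclear lncRNAs in being undetected. *Tsix*, *Rian* and *Mirg* held at most 2 fragments in a library and *Airn* at most 9.

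Of 9 lncRNAs that are known to be exported or cytoplasmic, 4 were called lower and 1 higher, and the median was -0.34. With a library left out, 2 to 5 were lower, the fewest without shNC-2 or shNAT10-2, and the median ranged from -0.47 without shNC-1 to -0.13 without shNC-2. At the same total of fragments, where the median of all tested genes was 0.38, the list median was 0.07. *Gas5* (-0.50), *Zfas1* (-0.49), *Snhg1* (-0.41) and *Epb41l4aos* (-0.34) were lower, the first 3 of them hosts of small nucleolar RNAs. *Malat1* (-0.41) lay within this range. *H19*, an imprinted lncRNA of growth control, was at 1.52 and 1.40 FPKM in shNC but at 6.77 and 6.81 in shNAT10 (log2 fold change 2.14, SE 0.13, limma adjusted p = 0.0443). *Snhg12* (-0.38), *Dancr* (-0.30), *2900097C17Rik* (-0.03) and *1700020I14Rik* (0.28) were not called. Whether nuclear and exported lncRNAs differ as classes was not tested.

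The genes most like each lncRNA across the 4 libraries were found by the root mean square distance between log2(FPKM + 0.1) profiles, each centred on its mean, among about 12137 genes with a mean of at least 1 FPKM. For *Malat1* they were *Ppp6c* (0.00397), a phosphatase subunit, *Emp2* (0.0128), a membrane protein, and *Mitf* (0.0131), a transcription factor of melanocytes and mast cells. For *Neat1* they were *B130046B21Rik* (0.00838), *Fastkd3* (0.0116) and *Urb2* (0.0139). For *Kcnq1ot1* they were *E230001N04Rik* (0.0147), *Scamp5* (0.0258) and the cell cycle kinase *Wee1* (0.0263). Such likeness was frequent with 4 libraries, as 582 genes lay within 0.1 of *Malat1*, 1532 of *Neat1* and 160 of *Kcnq1ot1*.

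**Figure D5:**
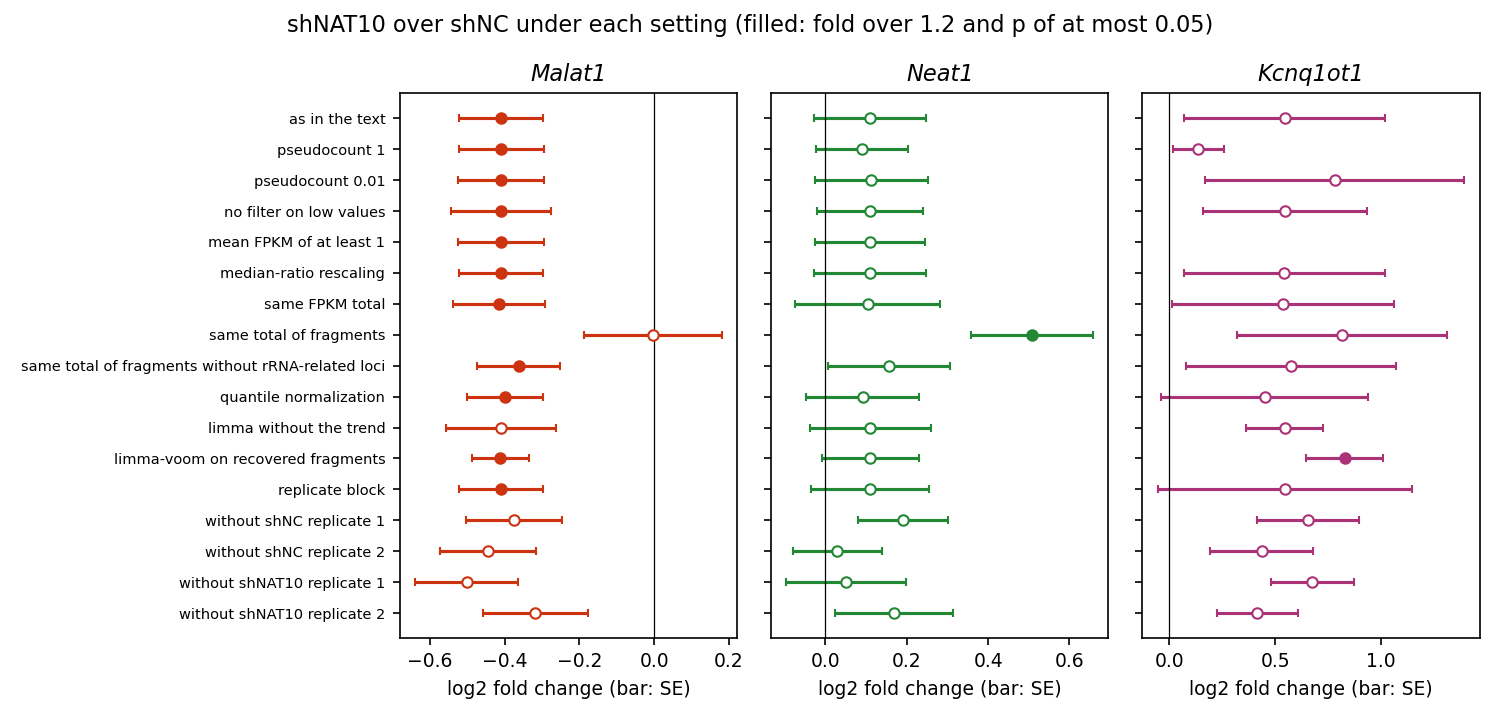
Log2 fold change of shNAT10 over shNC for *Malat1*, *Neat1* and *Kcnq1ot1* under each scaling, filter, pseudocount, model and left-out library, with SE bars and filled points where the fold was over 1.2 and p at most 0.05. *Malat1* lies between -0.50 and -0.32 except under the same total of fragments (-0.00), and *Kcnq1ot1* is above 0 in each setting in which it was tested but is called by limma-voom alone.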

How the data were processed

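RNA of shNC and shNAT10 FGSCs was sequenced in 2 libraries each, grouped by the sample labels. According to the methods the libraries were rRNA-depleted, whereas the labels describe mRNA isolation and a directional kit, so the records differ. The submitters' processing notes name cutadapt, HISAT2, DESeq2 and mm10, and the counting program, its strand setting and the annotation are not given in the sources used here. The authors deposited FPKM per gene, and a second table that also holds their log2 fold changes and p-values for 13023 genes, which were not used. Columns of single libraries left out numbered 0.

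The deposited FPKM were turned back into fragments by GENCODE M21 exon lengths (53360 gene identifiers matched, 99.8%). Of the values under 50 fragments, 96.3% were within 0.02 of being whole, where chance gives 4%. A median-ratio scaling is already part of the FPKM. The groups were compared on log2(FPKM + 0.1) with limma 3.58.1 in R 4.3.3, two-sided, with Benjamini-Hochberg adjustment over 20116 genes. The recovered fragments were tested with limma-voom over 20077 genes, of which 4023 had a p under 0.05. The script was tested on simulated data. Python 3.11.15, scipy 1.17.1 and pandas 2.3.3 served for the rest. Alternatives were other pseudocounts (1 and 0.01), filters, scalings and models, a replicate block and leaving out each library. Scaling to the same total of fragments and limma-voom without each library were added after seeing the data.

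The named genes are the 4 lncRNAs, every called gene of the lists, all genes of lists with at most 12 tested genes and otherwise the 3 most abundant uncalled ones, the 3 genes most like each tested lncRNA, tested neighbours within 100 kb, *Nat10*, *Gm26917* and *Gm42418*. Some neighbours are not reported here. A few further genes were picked with their values in view. The lncRNAs and the lists were chosen with earlier results of these data known.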

Additional observations from a re-analysis of the deposited data

How the results depend on the processing

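The direction of *Malat1* was negative and those of *Neat1* and *Kcnq1ot1* positive in every setting tried. The *Malat1* call was lost when libraries were scaled to the same total of fragments (-0.00249), without the trend (-0.41) and with each library left out (-0.50 to -0.32), while its adjusted p ranged from 0.000491 to 0.993, and from 4.96e-13 to 0.482 by limma-voom with a library left out. Scaling to the same total called *Neat1* (0.51) and gave 5288 genes higher and 312 lower (94.4% of calls higher, against 51.8%, and 60.3% with the rRNA-related loci left out of the total). The median of all tested genes was 0.38 at that total. Limma-voom called *Kcnq1ot1* (0.83). The number of these lncRNAs called was 1, with 0 called without the trend, 2 by limma-voom and 0 to 0 with a library left out. Leaving out a library gave 1108 to 1734 genes higher and 899 to 1659 lower, the fewest without shNAT10-1, and 9 to 24 list genes called, against 21, with 48 at the same total of fragments and 11 without the trend. Genes with an adjusted p under 0.05 numbered 88, and 0 at pseudocounts of 1 or 0.01, without a filter, without the trend or with the block (3128 genes had an unadjusted p under 0.05 with the block), 296 at a mean of at least 1 FPKM and 1583 by limma-voom. A pseudocount of 1 moved the log2 ratio difference of *Malat1* to *Kcnq1ot1* to -0.55 and of *Neat1* to *Kcnq1ot1* to -0.0481, and left-out libraries gave -1.503 to -0.96 and -0.95 to -0.47. Same-numbered libraries of the groups did not deviate together (r = -0.00168 over 12138 genes), so they share only a number. With the replicate block *Malat1* kept its call (-0.41), *Neat1* (0.11) and *Kcnq1ot1* (0.55) stayed uncalled, and 1587 genes were higher and 1527 lower. *Kcnq1ot1* was not tested at a mean of at least 1 FPKM, and *Miat* in no setting. The cause of these changes was not tested. The floors given above limit *Miat* only if its reads were counted, which was not tested.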
